A study of Mus musculus with 4 samples.

Results

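The genes described here are 38 regulators and executors of apoptosis, chosen by symbol: survival proteins of the Bcl-2 family and the inhibitor of apoptosis proteins, BH3-only proteins, Bax-type effectors, factors released from mitochondria, caspases, death receptor components and Txnip. Of the 38, 36 reached an FPKM of at least 1 in at least 1 of 4 libraries, out of 13458 genes that did so among 21723 measured. FPKM is the number of sequenced fragments scaled to transcript length and library size, so levels can be compared between genes. The BH3-only genes Bik and Bmf stayed below that level, at no more than 0.0858 and 0.256 FPKM. The members closest above it were Fadd, Casp8 and Birc3, with highest values of 1.76, 1.78 and 1.88 FPKM.

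The samples were cultures of hippocampal neurons from CD1 mouse pups at postnatal day 0. All were infected with a lentivirus on day 4 in vitro, carrying either the pLKO.1 vector alone (vector) or a short hairpin RNA against the histone demethylase gene Kdm6b (hairpin), and harvested on day 11. At harvest they had been left untreated or had received 50 µM bicuculline (the unit is read as micromolar) with 2.5 mM 4-aminopyridine for 3 h (Bic/4AP), which raises synaptic firing by blocking GABA-A receptors and potassium channels. Each of the 4 combinations is 1 library of polyA RNA, a single hairpin was used, and the study's title concerns survival of neurons preconditioned by activity. Each comparison of 1 library with another was made without a test and describes those libraries. The Bic/4AP and hairpin effects averaged over the other factor were tested in 1 additive fit, described after the single genes.

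Apoptosis through mitochondria is set by a balance between Bcl-2 survival proteins and BH3-only proteins, which neutralise them or activate Bax and Bak. Once the outer membrane opens, cytochrome c binds Apaf1 and activates caspase-9, while Diablo and Htra2 relieve the inhibition of caspases by Xiap. Death receptors such as Fas use Fadd and caspase-8 instead. Young neurons are known to rely on this machinery during developmental cell death, and several BH3-only genes are transcribed when neurons lose trophic support or electrical activity.

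Each gene's 4 values follow 1 order: the vector culture at rest, the vector culture with Bic/4AP, the hairpin culture at rest and the hairpin culture with Bic/4AP. Differences were taken as log2(FPKM + 1), which shrinks them, most of all near or below an FPKM of 1. A difference of at least 1.5-fold on that scale (0.585) is marked as called. Plain FPKM ratios past 1.5-fold can therefore go uncalled. Those with Bic/4AP in vector cultures were Birc3 (2.10), Cflar (1.54), Bcl2l11 (1.57) and Hrk (0.663). Those with the hairpin were Bcl2l11 at rest (1.64) and Bid after Bic/4AP (0.649). Bounds of a difference come from the extremes of the authors' bounds of each FPKM and cover counting and read assignment within a library, not variation between cultures. Kdm6b, the target of the hairpin, stood at 6.74, 13.1, 2.73 and 4.83 FPKM, so the hairpin left 40.6% of its level at rest and 36.8% after Bic/4AP. For members at FPKM 1 or more, the median distance to the upper bound was 5.20%, 4.94%, 4.77% and 4.55% of the value, so the 4 libraries were of similar precision. Neuron markers were present, with a sum over 9 genes of 2599, 2475, 1816 and 2018 FPKM, and astrocyte markers were too, with a sum over 8 genes of 2814, 3074, 2757 and 3136 FPKM. The sum over 14 microglia markers was 126, 138, 47.5 and 57.4 FPKM, with none listed at 0. Single genes weigh on these sums. Stmn2, the largest neuron term in vector cultures, stood at 731, 644, 288 and 277 FPKM, and Snap25 at 452, 383, 417 and 429 FPKM. Lyz2, the largest microglia term, stood at 58.4, 69.4, 15.8 and 22.5 FPKM, and P2ry12 at 1.43, 1.35, 1.88 and 1.52 FPKM. In bulk RNA, fewer cells of a type and less RNA of these genes per cell cannot be told apart.

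**Figure D1:**
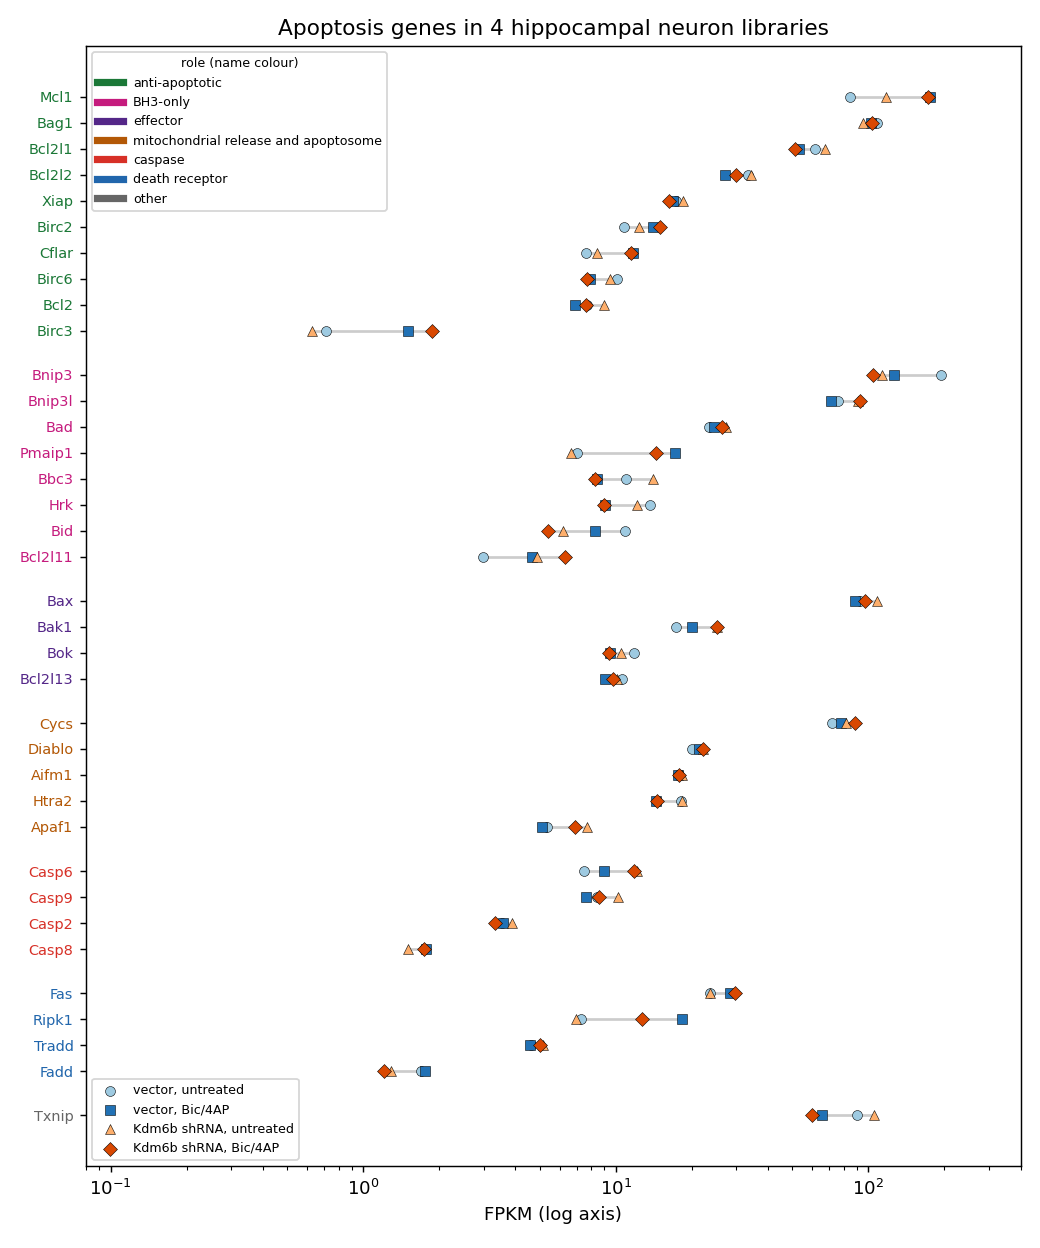
FPKM on a log axis of the 36 members at FPKM 1 or more in at least 1 library, with 1 point per library and names coloured by role. The points of most genes lie close together, whereas those of Mcl1, Birc3, Pmaip1, Ripk1, Bcl2l11, Bid and Bnip3 spread apart. Bnip3 tops the untreated vector library at 194 FPKM and Mcl1 the other 3.

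With Bic/4AP, 3 members were higher in vector cultures beyond the threshold: Mcl1, a survival protein of the Bcl-2 family, Pmaip1, which encodes the BH3-only protein Noxa, and Ripk1, a kinase of death receptor signalling. In hairpin cultures Pmaip1, Ripk1 and Birc3, an inhibitor of apoptosis gene induced through NF-kB, were higher. On the lower side stood Bnip3, a mitochondrial protein of mitophagy and cell death, in vector cultures, and Bbc3, which encodes the BH3-only protein Puma, and Txnip, the inhibitor of thioredoxin, in hairpin cultures. The higher genes therefore included survival and death-promoting members.

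Those counts can be set against all genes. In vector cultures 3 of 36 members (8.33%) were called higher against 5.04% of 13217 genes, and 1 (2.78%) was called lower against 3.67%. All 3 higher members were also at least 2-fold higher, against 2.22% of genes. In hairpin cultures 3 (8.33%) were called higher against 4.23% of 13320 genes, 2 (5.56%) lower against 2.52%, and 1, Pmaip1, was 2-fold higher against 2.08%. The median over members was -0.02 in vector and -0.05 in hairpin cultures, and over all genes -0.07 and -0.08, and the member medians took the other sign under 2 of 3 other scalings. These shares rest on 1 to 3 genes each, and the members were chosen with earlier results of these data known.

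The anti-apoptotic group split by gene. Mcl1, on chromosome 3 from 95462643 to 95467101 in build mm9, stood at 84.4, 176, 118 and 172 FPKM. Its response to Bic/4AP was 1.05 (bounds 1.01 to 1.09) in vector cultures, a ratio of 2.08, and 0.55 (0.51 to 0.58) in hairpin cultures, a ratio of 1.46. The untreated hairpin library was 0.48 (0.43 to 0.52) above the untreated vector library, whereas the stimulated libraries were 0.03 apart in size, with bounds (-0.06 to 0.01) that include 0. The responses differed by -0.50 (-0.58 to -0.42). In median-ratio or upper-quartile scaling the hairpin response of Mcl1 passed the threshold, at 0.64 and 0.60.

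The other 3 Bcl-2 survival genes were lower with Bic/4AP in both backgrounds. Bcl2l1, which encodes Bcl-xL, the main such protein of mature neurons, stood at 61.3, 52.9, 67.3 and 51.1 FPKM, with responses of -0.21 and -0.39. Bcl2l2 (Bcl-w) stood at 33.3, 27.0, 34.2 and 29.9 FPKM, and Bcl2 itself at 7.70, 6.86, 9.02 and 7.62 FPKM. Of the FPKM summed over these 4 genes, Mcl1 held 45.2%, 66.9%, 51.6% and 66.0%, and Bcl2l1 held 32.8%, 20.2%, 29.5% and 19.6%. The sum itself was 187, 262, 228 and 261 FPKM, and its gain with Bic/4AP was smaller than that of Mcl1 alone in both backgrounds.

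Among the inhibitor of apoptosis genes, Birc3, whose product ubiquitinates Ripk1 and caspases, stood at 0.713, 1.5, 0.625 and 1.88 FPKM on chromosome 9 from 7848701 to 7873170. Both stimulated libraries lay above both untreated ones, with ratios of 2.10 in vector and 3.00 in hairpin cultures and differences of 0.54 (0.28 to 0.80) and 0.82 (0.58 to 1.07). With a pseudocount of 5 the second was 0.29, under the threshold. Its neighbour and relative Birc2 stood at 10.8, 14.1, 12.3 and 15.0 FPKM, with responses of 0.36 and 0.26. Cflar, the decoy that blocks caspase-8 activation, stood at 7.60, 11.7, 8.43 and 11.4 FPKM, with responses of 0.57 and 0.40, the first just under the threshold. These 3 genes are components or known targets of NF-kB signalling. Xiap, a direct inhibitor of caspases, ranged from 16.3 to 18.4 FPKM. Birc6, a very large ubiquitin ligase, stood at 10.1, 7.94, 9.45 and 7.71 FPKM, lower with Bic/4AP in both backgrounds. Bag1, a co-chaperone of Hsp70 that binds Bcl-2, ranged from 95.4 to 108 FPKM.

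Promoter windows are shown for 4 of the 7 members called with Bic/4AP, as examples of both directions: Mcl1 and Ripk1 (higher), and Bnip3 and Txnip (lower). Those called but not shown are Pmaip1, Birc3 and Bbc3. They run from 250 bases before to 50 bases after an annotated start site, in RefSeq on build GRCm38.p6, which is not the build of the expression tables, and are written 5′ to 3′ on the gene's strand. Capitals mark the words TGACG, the core of the cAMP response element, and CACGTG, an E-box, found on either strand.
Mcl1, chr3:95658471-95658770, plus strand: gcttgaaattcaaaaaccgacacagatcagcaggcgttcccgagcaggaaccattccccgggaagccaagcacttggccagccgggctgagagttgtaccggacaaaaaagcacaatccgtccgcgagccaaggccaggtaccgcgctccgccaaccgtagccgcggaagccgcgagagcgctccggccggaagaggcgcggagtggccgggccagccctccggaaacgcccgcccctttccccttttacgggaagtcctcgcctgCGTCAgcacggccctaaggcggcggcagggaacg
Ripk1, second annotated start, chr13:34002624-34002923, plus strand: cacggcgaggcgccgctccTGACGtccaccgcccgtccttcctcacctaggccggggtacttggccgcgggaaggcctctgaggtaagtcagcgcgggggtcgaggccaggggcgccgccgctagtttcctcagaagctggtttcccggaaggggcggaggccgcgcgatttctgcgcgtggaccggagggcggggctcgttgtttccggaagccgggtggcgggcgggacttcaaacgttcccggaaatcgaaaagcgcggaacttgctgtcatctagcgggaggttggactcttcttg
Bnip3, chr7:138909457-138909756, minus strand: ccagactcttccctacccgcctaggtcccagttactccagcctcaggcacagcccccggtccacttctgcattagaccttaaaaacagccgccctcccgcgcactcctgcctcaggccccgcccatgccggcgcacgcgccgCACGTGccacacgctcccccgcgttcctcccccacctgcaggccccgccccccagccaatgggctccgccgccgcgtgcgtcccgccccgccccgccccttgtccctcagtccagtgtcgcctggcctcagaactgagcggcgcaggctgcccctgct
Txnip, chr3:96557707-96558006, plus strand: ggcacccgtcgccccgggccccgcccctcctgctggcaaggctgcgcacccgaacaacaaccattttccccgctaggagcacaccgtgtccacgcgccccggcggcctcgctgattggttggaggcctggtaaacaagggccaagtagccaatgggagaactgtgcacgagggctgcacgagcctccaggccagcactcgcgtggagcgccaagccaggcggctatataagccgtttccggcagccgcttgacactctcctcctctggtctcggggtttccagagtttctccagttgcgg

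The word in the Mcl1 window starts 16 bases after the start site, that of Ripk1 231 bases before it and the E-box of Bnip3 108 bases before it, while the other Ripk1 window and that of Txnip held none of the words searched. Of the members called but not shown, Bbc3, called lower, held TGACG in 1 of its windows and CACGTG in another. No word was recorded for Birc3, called higher in hairpin cultures, or for Pmaip1, called higher in both backgrounds. Each of these had either no match or no window. TGACG thus occurred in members called in either direction. Of 45 windows of 33 members, 12 (26.7%) held TGACG against 20.8% of 32851 windows, and 4 (8.89%) held CACGTG against 7.15%. The full palindrome TGACGTCA, which contains TGACG, was in 2 windows, those of Birc2 and Cycs, and in 1.79% of all windows. TGANTCA, the AP-1 word, was in 1 window, that of Fas, and in 7.81% of all. The SRF CArG box was in none of the 45 windows and in 1.63% of all. Member windows were richer in G and C, with a median of 63.3% against 52.7%. A match says only that the letters are there.

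BH3-only genes differed in both directions. Pmaip1, on chromosome 18 from 66618258 to 66625212, stood at 7.02, 17.1, 6.67 and 14.4 FPKM, so the stimulated libraries did not overlap the untreated ones. Its responses were 1.17 (1.02 to 1.33) in vector and 1.0 (0.85 to 1.16) in hairpin cultures, ratios of 2.43 and 2.16. Noxa, its product, binds Mcl-1 in preference to other survival proteins, and both genes of that pair were higher with Bic/4AP.

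Bcl2l11, which encodes the BH3-only protein Bim, stood at 2.97, 4.67, 4.88 and 6.31 FPKM. Its values were lowest in the untreated vector library and highest in the stimulated hairpin library, with responses of 0.51 (0.30 to 0.73) and 0.31 (0.12 to 0.51) and hairpin differences of 0.57 (0.36 to 0.78) at rest and 0.37 (0.17 to 0.57) during firing. None of these reached the threshold, although with a pseudocount of 0.1 the vector response was 0.63 and the untreated hairpin difference 0.70.

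Bbc3 and Hrk, BH3-only genes that rise in deprived neurons, stood on the other side with Bic/4AP. Bbc3, on chromosome 7 from 16894932 to 16903683, stood at 11.0, 8.42, 14.1 and 8.26 FPKM, with responses of -0.35 (-0.54 to -0.16) and -0.70 (-0.88 to -0.53), the second of which was -0.53 with a pseudocount of 5 and no longer called. The stimulated libraries differed by -0.02 (-0.22 to 0.17), and the wider gap in hairpin cultures went with their higher untreated level. Hrk, a neuronal BH3-only gene, stood at 13.7, 9.10, 12.1 and 8.94 FPKM, with responses of -0.54 and -0.40 and both stimulated libraries below both untreated ones.

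Bid, which caspase-8 cleaves to link death receptors to mitochondria, was lower with the hairpin in both states. It lies on chromosome 6 from 120843137 to 120866838 and stood at 10.9, 8.29, 6.17 and 5.38 FPKM, so both hairpin libraries lay below both vector libraries. At rest the hairpin difference was -0.73 (-0.93 to -0.53), or -0.51 and not called with a pseudocount of 5, and during firing it was -0.54 (-0.77 to -0.32). Microglia markers differed in the same direction, with 11 of 12 compared markers below 0 untreated (6 called lower) and 10 of 12 with Bic/4AP (9 called lower), and their part in the Bid difference was not tested.

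Bnip3, on chromosome 7 from 146082519 to 146101189, stood at 194, 126, 113 and 104 FPKM, with the untreated vector library apart from the other 3. Its response was -0.62 (-0.68 to -0.57) in vector and -0.12 (-0.18 to -0.05) in hairpin cultures, and the hairpin differences were -0.77 (-0.83 to -0.72) at rest and -0.27 (-0.33 to -0.20) during firing. The vector response was under the threshold in median-ratio and upper-quartile scaling. Bnip3l, its relative in mitophagy, stood at 76.1, 71.1, 91.0 and 92.2 FPKM, higher in both hairpin libraries. The 2 genes thus had hairpin differences of opposite sign. Bad, the BH3-only protein controlled by growth factor kinases, ranged from 23.4 to 27.4 FPKM, and its locus overlaps Gpr137, at 46.3 to 61.8 FPKM, so that reads of the shared stretch may be hard to assign.

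**Figure D2:**
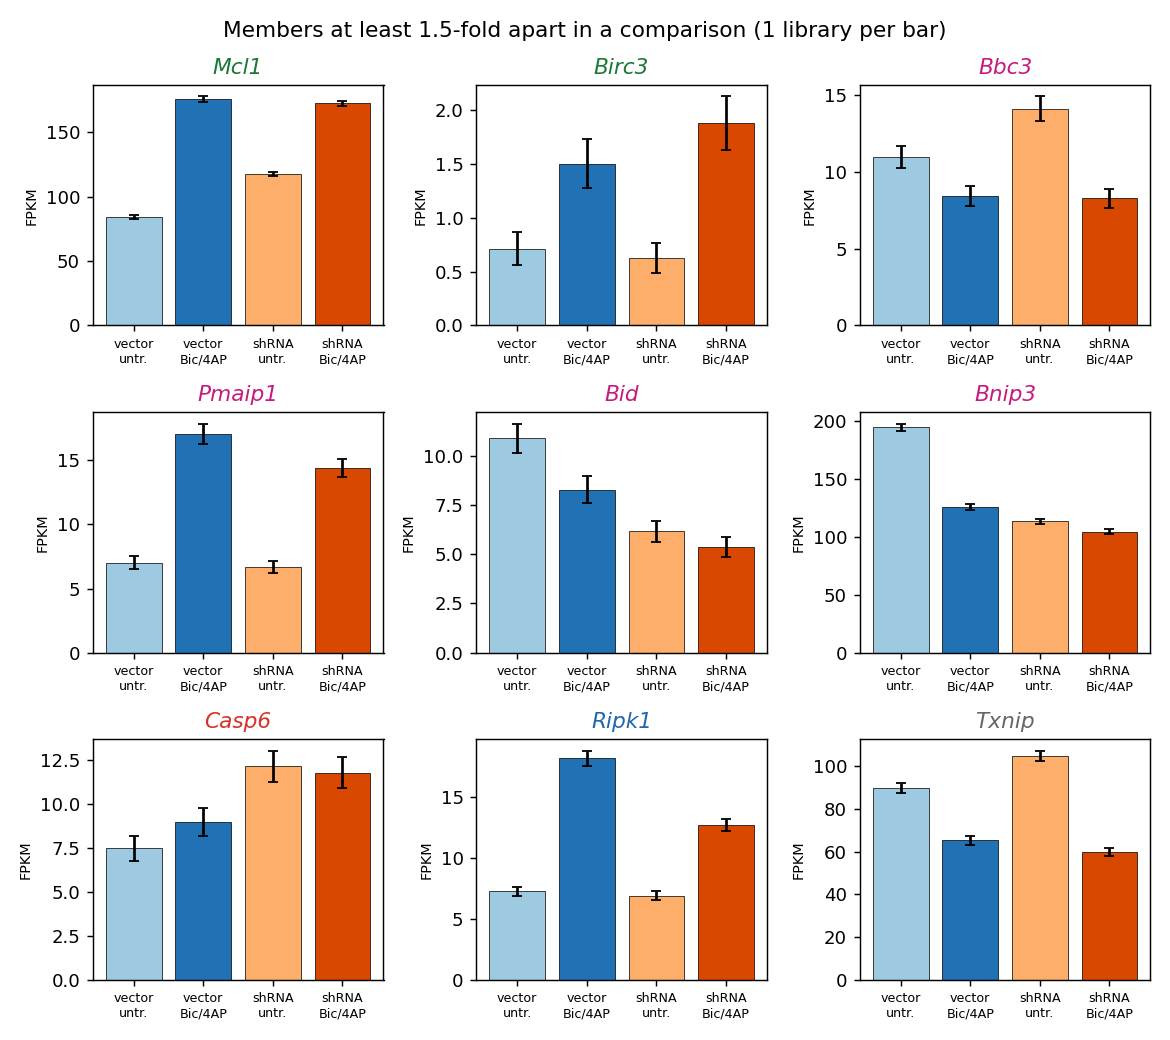
FPKM of the 9 members called in any comparison, 1 bar per library from 0, with the authors' lower and upper bounds as error bars and names coloured by role. Mcl1, Birc3, Pmaip1 and Ripk1 are higher in both stimulated libraries, Txnip and Bbc3 are lower in both, Bid is lower and Casp6 higher in both hairpin libraries, and Bnip3 is highest in the untreated vector library.

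Of the 4 genes grouped as effectors, which include multidomain relatives of Bax and Bak, none was called with the hairpin. At rest Bak1 and Bax lay above 0 and Bok and Bcl2l13 below it, and during firing 3 lay above 0, all but Bok. Bak1 stood at 17.3, 20.0, 25.1 and 25.2 FPKM, so the hairpin libraries lay above both vector libraries, with differences of 0.51 (0.38 to 0.64) at rest and 0.32 (0.19 to 0.45) during firing. Bax, the effector that most neuronal apoptosis requires, stood at 92.4, 88.5, 108 and 97.2 FPKM, with hairpin differences of 0.22 (0.12 to 0.32) and 0.13 (0.03 to 0.24). Bok, an effector relative, stood at 11.8, 9.46, 10.5 and 9.44 FPKM, with hairpin differences of -0.16 (-0.36 to 0.05) and -0.00 (-0.23 to 0.22). Bcl2l13, an atypical mitochondrial family member, stood at 10.6, 9.04, 10.1 and 9.73 FPKM, with hairpin differences of -0.07 (-0.16 to 0.02) and 0.09 (-0.00 to 0.19).

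Factors of the apoptosome and the intermembrane space moved little with Bic/4AP. Apaf1, the scaffold of the apoptosome, stood at 5.36, 5.09, 7.70 and 6.90 FPKM, again with both hairpin libraries above both vector libraries (0.45, bounds 0.30 to 0.61, and 0.37, bounds 0.22 to 0.53). Cycs, which encodes cytochrome c, stood at 71.6, 77.6, 81.2 and 88.4 FPKM, and reads of its processed copies in the genome may be shared with it. Htra2, a protease that cleaves inhibitor of apoptosis proteins, stood at 18.1, 14.4, 18.2 and 14.6 FPKM, lower with Bic/4AP in both backgrounds by -0.32 and -0.30. Diablo ranged from 20.0 to 22.2 FPKM and Aifm1, a flavoprotein released from mitochondria, from 17.6 to 18.3 FPKM. Diablo overlaps B3gnt4, at no more than 2.92 FPKM, and Htra2 overlaps Loxl3, at no more than 5.36 FPKM.

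Casp6, the caspase tied to axon degeneration, was the only caspase of 4 called in a comparison. It lies on chromosome 3 from 129604343 to 129617020 and stood at 7.46, 8.98, 12.1 and 11.8 FPKM, with hairpin differences of 0.63 (0.42 to 0.85) at rest and 0.36 (0.14 to 0.58) during firing. The first fell under the threshold in median-ratio scaling and, at 0.46, with a pseudocount of 5. Casp9, the initiator activated by Apaf1, stood at 8.40, 7.65, 10.2 and 8.60 FPKM, with hairpin differences of 0.25 and 0.15. Casp2 ranged from 3.33 to 3.89 FPKM and Casp8, the initiator at death receptors, from 1.51 to 1.78 FPKM. Bounds of Casp2 and Casp8 overlapped in all 4 pairwise comparisons, so no difference in them was detectable at this depth.

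Death receptor components differed from each other with Bic/4AP. Ripk1, on chromosome 13 from 34094743 to 34127039, stood at 7.27, 18.2, 6.93 and 12.7 FPKM. Both stimulated libraries lay above both untreated ones, with responses of 1.22 (1.11 to 1.33) in vector and 0.79 (0.67 to 0.91) in hairpin cultures, ratios of 2.51 and 1.84. The second was 0.57 with a pseudocount of 5, just under the threshold. In contrast to Mcl1, the untreated libraries were close (-0.06, bounds -0.19 to 0.07) and the stimulated hairpin library was below the stimulated vector library (-0.49, bounds -0.59 to -0.39). Fas, the receptor, stood at 23.6, 28.4, 23.6 and 29.5 FPKM, with responses of 0.26 and 0.31. Fadd, its adaptor, stood at 1.69, 1.76, 1.29 and 1.21 FPKM and Tradd, the adaptor of the TNF receptor, between 4.58 and 5.15 FPKM.

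Txnip, a thioredoxin inhibitor that links glucose and redox stress to cell death, lies on chromosome 3 from 96361880 to 96365780 and stood at 89.9, 65.3, 105 and 59.6 FPKM. Both stimulated libraries lay below both untreated ones, with responses of -0.45 (-0.53 to -0.38) and -0.80 (-0.88 to -0.73). Its locus overlaps Gm15441, at no more than 1.02 FPKM.

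**Figure D3:**
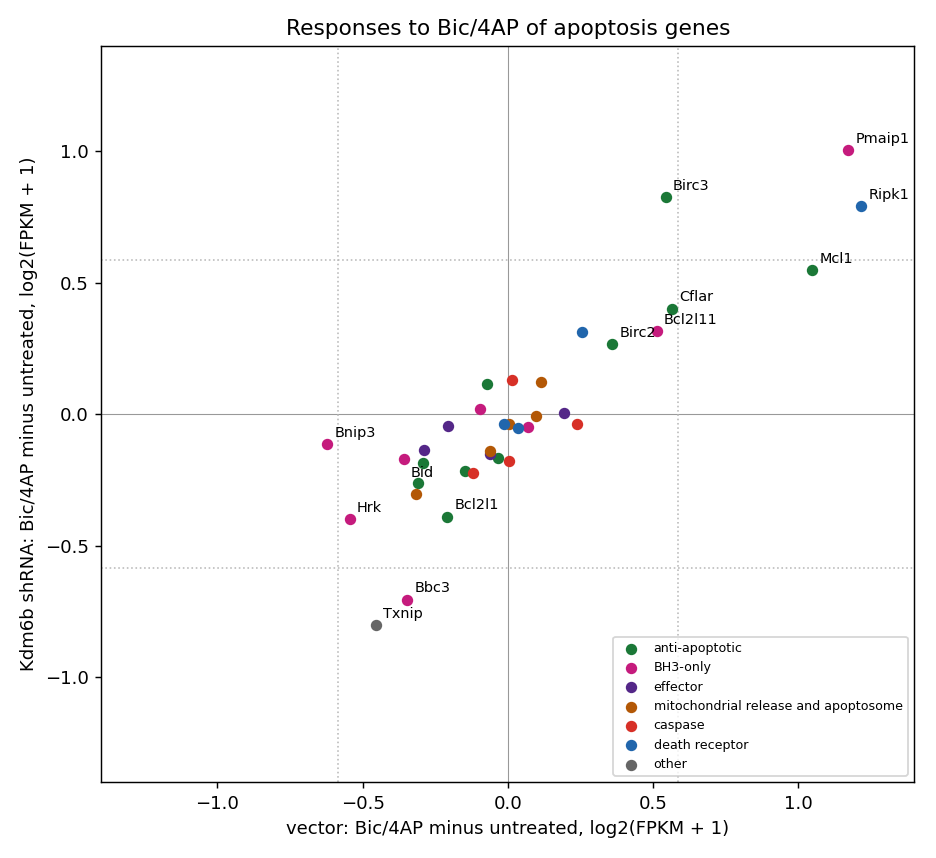
Response to Bic/4AP in vector (x axis) and hairpin cultures (y axis) of the 36 members in log2(FPKM + 1), 1 point per gene coloured by role, with dotted lines at 1.5-fold. Pmaip1, Ripk1, Mcl1 and Birc3 lie to the upper right, and Txnip, Bbc3, Hrk and Bnip3 to the lower left.

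The responses in vector and hairpin cultures share no library. Of 36 members, 28 (77.8%) had the same sign in both, against 81.7% of 13079 genes, and across the 36 genes, which share the 4 libraries and are not independent replicates, Pearson's r was 0.88 and Spearman's rho 0.86. With the authors' bounds apart in both, 9 members (25.0%) were higher with Bic/4AP in both backgrounds, against 14.1% of genes: Mcl1, Birc2, Birc3, Cflar, Bcl2l11, Pmaip1, Cycs, Fas and Ripk1. Another 9 (25.0%) were lower in both, against 29.4%: Bcl2, Bcl2l1, Bcl2l2, Birc6, Bbc3, Hrk, Bnip3, Htra2 and Txnip. All 18 kept their sign in both backgrounds under the 3 other scalings. In single comparisons, bounds were apart for 24 members (66.7%) in vector and 22 (61.1%) in hairpin cultures, against 58.7% and 54.6% of genes. Bounds apart are thus a common state in these libraries.

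The mean Bic/4AP effect over both backgrounds was tested with limma, in an additive fit of hairpin and Bic/4AP to log2(FPKM + 1), with p-values adjusted by Benjamini-Hochberg over all 13458 genes. That fit, added after the data were seen, has 1 residual degree of freedom per gene, which is the difference between the 2 responses, and no replicate culture of any condition. At an adjusted p under 0.05, 8 of 36 members (22.2%) were higher with Bic/4AP against 12.1% of genes: Pmaip1, Ripk1, Mcl1, Birc3, Cflar, Bcl2l11, Birc2 and Fas. Another 8 (22.2%) were lower against 25.6% of genes: Txnip, Hrk, Bbc3, Htra2, Bcl2l1, Birc6, Bcl2l2 and Bid. Pmaip1 was higher by 1.09 (SE 0.07, limma adjusted p = 0.000365), Ripk1 by 1.0 (SE 0.11, limma adjusted p = 0.00195) and Mcl1 by 0.80 (SE 0.12, limma adjusted p = 0.00502). On the lower side Txnip differed by -0.63 (SE 0.09, limma adjusted p = 0.00453) and Hrk by -0.47 (SE 0.07, limma adjusted p = 0.00484). Bnip3, called lower in vector cultures, did not pass. Under median-ratio scaling 19.2% of genes were higher and 17.4% lower, and among members Bcl2l2 and Bid no longer passed while Cycs did.

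By role, no group moved as a whole with Bic/4AP. The median of the 10 anti-apoptotic genes was -0.05 in vector and -0.03 in hairpin cultures, with 4 and 5 genes above 0. For the 8 compared BH3-only and BNIP3-type genes it was -0.22 and -0.08, with 3 above 0 each time. The effectors had medians of -0.13 and -0.09, mitochondrial factors of 0.00 and -0.04, caspases of 0.01 and -0.11 and death receptor genes of 0.15 and 0.14. Both anti-apoptotic and both mitochondrial medians, the hairpin-culture median of the BH3-only group and the vector median of the caspases changed sign in 1 or more of the 3 other scalings. Summed FPKM of the anti-apoptotic genes was 341, 417, 373 and 417, a gain smaller than that of Mcl1 alone. That of the BH3-only and BNIP3-type group was 340, 269, 276 and 267. Bnip3 held 194, 126, 113 and 104 FPKM of it, and Bnip3l 76.1, 71.1, 91.0 and 92.2 FPKM. The sum therefore describes mainly these 2 mitophagy genes and not the other BH3-only genes.

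With the hairpin, at rest, Casp6 was called higher and Bid and Bnip3 lower. That is 1 of 35 members (2.86%) higher against 2.74% of 13295 genes, and 2 (5.71%) lower against 2.93%. The median over members was 0.13 against 0.05 for all genes. With Bic/4AP no member was called in either direction, against 1.72% of 13240 genes called higher and 2.14% lower, and the median was 0.02 against 0.03, or -0.03 under median-ratio scaling. Bounds were apart for 23 members (65.7%) untreated and 16 (44.4%) with Bic/4AP, against 55.2% and 49.7% of genes.

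Hairpin differences that held in both states, with bounds apart in each, were on the higher side for 9 of 35 members (25.7%, against 21.6% of 13077 genes): Bcl2, Bcl2l11, Bnip3l, Bax, Bak1, Apaf1, Cycs, Casp6 and Casp9. They were on the lower side for 2 (5.71%, against 14.9%), Bid and Bnip3. The higher members include steps of the mitochondrial route (Bim, Bax, Bak, cytochrome c, Apaf1 and caspase-9) and also Bcl2, a survival gene, and their share is near that of all genes. All 11 kept their sign under the 3 other scalings. In the additive limma fit the mean hairpin effect passed for 6 of 36 members on the higher side (16.7%, against 16.7% of genes), Bak1, Apaf1, Casp6, Bcl2l11, Bnip3l and Cycs, and for 2 on the lower side (5.56%, against 11.9%), Bid and Bnip3. Bid differed by -0.64 (SE 0.08, limma adjusted p = 0.00491) and Bak1 by 0.42 (SE 0.07, limma adjusted p = 0.0103). These errors and p-values rest on the same 1 residual degree of freedom per gene, with no replicate culture of any condition. Under median-ratio scaling 13.6% of genes were higher and 18.1% lower, Cycs no longer passed, and Fadd and Ripk1 passed on the lower side. Of 35 members, 26 (74.3%) had the same sign in both states, against 79.0% of genes. Of the 5 mitochondrial factors, all 5 lay above 0 in both states, with medians of 0.14 and 0.04, the second of which was -0.009 under median-ratio scaling. Of all genes, 58.9% lay above 0 untreated and 56.4% with Bic/4AP. At rest 7 of 9 anti-apoptotic genes (median 0.13) and 3 of 4 caspases (median 0.18) also lay above 0. So did 4 of 8 BH3-only, 2 of 4 effector and 2 of 4 death receptor genes.

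Other marker lists differed between hairpin and vector libraries beside these values, and their part in them was not tested. Interferon-stimulated genes summed to 59.1, 85.9, 161 and 119 FPKM over 10 genes, with 9 of 9 compared above 0 in both states. Untreated, 9 were called higher (median 1.42, against 2.74% of all genes), and with Bic/4AP 3 were (median 0.35, against 1.72%). Their responses to Bic/4AP were above 0 in 9 of 9 in vector cultures and below 0 in 9 of 9 in hairpin cultures. Proliferation genes summed to 9.11, 11.1, 24.8 and 25.3 FPKM over 8 genes, with 5 of 5 compared called higher in both states. Neuron markers were below 0 in 9 of 9 untreated (median -0.44) and in 6 of 9 with Bic/4AP (median -0.27), and oligodendrocyte lineage markers in 5 of 5 each time. Astrocyte markers were above 0 in 6 of 8 both times (medians 0.07 and 0.08).

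**Figure D4:**
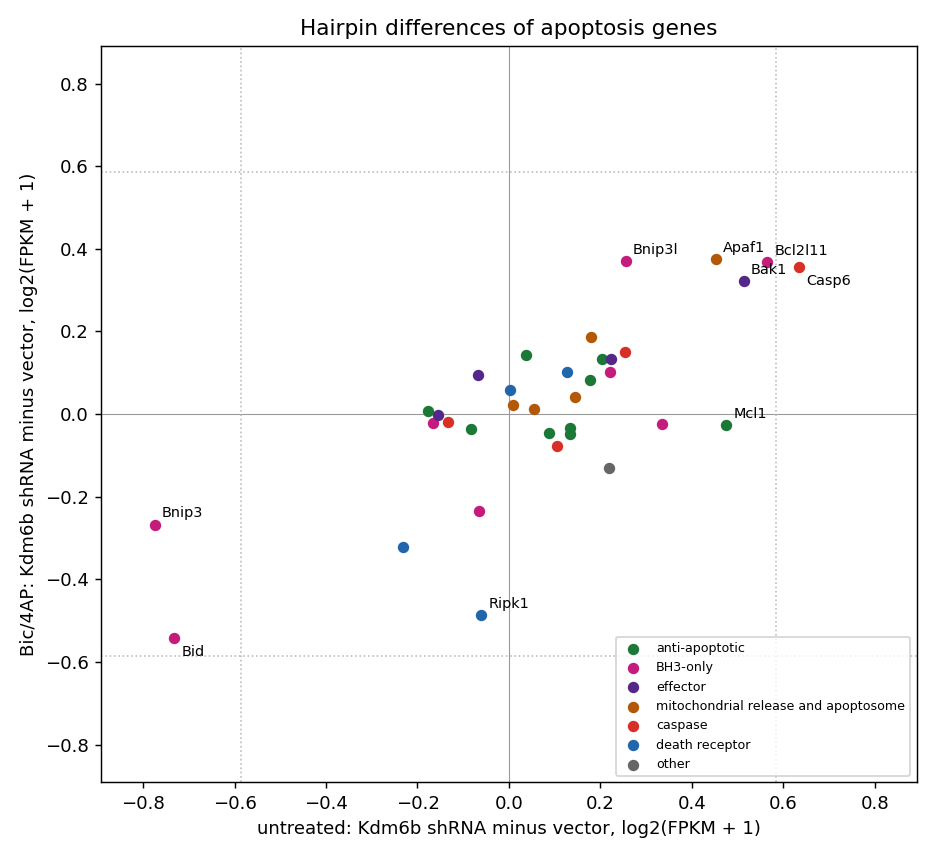
Hairpin minus vector difference untreated (x axis) and with Bic/4AP (y axis) in log2(FPKM + 1) for the 35 members compared in both states, 1 point per gene coloured by role, with dotted lines at 1.5-fold. Casp6, Bcl2l11, Bak1 and Apaf1 lie to the upper right and Bid and Bnip3 to the lower left, while Mcl1 differed untreated only and Ripk1 with Bic/4AP only.

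The difference of the Bic/4AP responses (hairpin minus vector) was under the threshold for all 36 members, against 0.728% of 13458 genes called higher and 0.52% lower. It was farthest from 0 for Bnip3 (0.51, bounds 0.39 to 0.63) and Mcl1 (-0.50, bounds -0.58 to -0.42). Ripk1 (-0.43, bounds -0.66 to -0.20), Bbc3 (-0.36, bounds -0.72 to 0.00) and Txnip (-0.35, bounds -0.51 to -0.19) followed. Bounds excluded 0 for 7 members (19.4%), against 11.4% of genes: Bcl2l1, Mcl1, Bag1, Bnip3, Bnip3l, Ripk1 and Txnip. The median was -0.08 over members and -0.02 over all genes. Absolute hairpin differences were smaller with Bic/4AP than untreated for 26 of 35 members (74.3%), against 57.4% of genes, and their median went from 0.18 to 0.10, against 0.16 and 0.14 for all genes.

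The wider pathway was read from a further list of 98 symbols, of which 94 were measured and 80 compared in vector cultures. That list was chosen with earlier results of these data known. Its shares with Bic/4AP therefore describe the list and are not independent evidence of a pathway response. With Bic/4AP 15 (18.8%) were called higher in vector cultures against the 5.04% of all genes, and 2 (2.50%) lower against 3.67%. In hairpin cultures 15 of 79 (19.0%) were higher against 4.23%, and 0 lower against 2.52%. The largest were stress-response genes: Gadd45g (38.7, 299, 41.9 and 237 FPKM), Gadd45b (20.5, 128, 18.4 and 111 FPKM) and Gadd45a (5.45, 21.4, 9.83 and 32.2 FPKM), whose products act in growth arrest and kinase signalling, and Jun (52.7, 247, 75.9 and 261 FPKM), the AP-1 factor. Several of these are also activity-induced genes. Others, named after their values were seen, were Bag3, an Hsp70 co-chaperone (14.9, 47.2, 13.7 and 37.5 FPKM), Ddit3, which encodes the stress factor CHOP (27.7, 64.8, 23.9 and 63.4 FPKM), and Dffb, the caspase-activated DNase (2.33, 7.30, 2.83 and 10.3 FPKM). Txnrd1 (105, 243, 112 and 185 FPKM) and Tmbim1 (14.6, 31.8, 13.7 and 25.3 FPKM) were also at least 2-fold higher in vector cultures. Tnfaip3 (1.02, 3.12, 1.24 and 4.90 FPKM) was so in both backgrounds. With the hairpin, 2 of 77 (2.60%) were called higher untreated against 2.74% of all genes, and 1 (1.30%) lower against 2.93%. During firing 2 of 79 (2.53%) were higher against 1.72% and 1 (1.27%) lower against 2.14%, so these shares lie near those of all genes. Birc5, which encodes the mitotic protein survivin, had the largest hairpin difference of the list at rest, at 1.38, 1.86, 4.39 and 3.84 FPKM, beside the proliferation markers above.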

How the data were processed

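PolyA RNA of 4 cultures was sequenced from TruSeq libraries, per the labels' protocols, and build mm9 with the tools Cufflinks 2.0.2, TopHat2 2.0.8b and CASAVA 1.8 is listed, without roles, in the submitters' processing notes. The annotation and strand handling are not given in the sources used here. The authors deposited FPKM per gene with a lower and an upper bound, for 22878 rows. Total counts are not in those tables, so depth is known only through the bounds. Rows of a symbol were summed (each of the 38 has 1 row), and symbols with a failed row and small RNA genes recognised by symbol were left out. Locus starts count from 0, since 541 of 551 microRNA genes had a RefSeq length of end minus start, and are printed from 1.

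A gene was compared when FPKM was at least 1 in a compared library (any library for the difference of responses), in log2(FPKM + 1), and called at 1.5-fold. Comparisons of single libraries were not tested. An additive limma fit (R 4.3.3, limma 3.58.1, trended prior) of hairpin and Bic/4AP, added after the data were seen, tested the averaged effects at an adjusted p of 0.05. Values were computed with Python 3.11.15, numpy 2.4.6 and pandas 2.3.3, and the comparison was tested on simulated data. All 38 members were accounted for, with 4 values for each called or defining member. The members, roles and lists (further pathway, neuron, microglia, astrocyte, oligodendrocyte, proliferation and interferon-stimulated) were chosen with earlier results of these data known. Alternatives were other pseudocounts, filters and scalings, the highest row per symbol, and bounds apart.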

Additional observations from a re-analysis of the deposited data

Results flagged for a closer look

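Txnip had hairpin differences of opposite sign, both with bounds apart: 0.22 (0.15 to 0.29) at rest and -0.13 (-0.22 to -0.04) during firing. The difference of its responses was -0.35, and with 1 library per condition it was not tested.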

How the results depend on the processing

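Members were counted and their medians taken under 9 alternatives. The highest row per symbol could change no member value, since each member has 1 row. Requiring bounds apart could only lower a count. No member was called for the difference of responses under any alternative tried. The totals that follow include these cases. Of 88 counts, 75 stayed within 1.5 times, and all 40 medians stayed within 0.1, although those of both Bic/4AP responses and of the hairpin difference during firing took both signs (-0.07 to 0.05, -0.08 to 0.04 and -0.03 to 0.02). With a pseudocount of 0.1, 6 members were higher and 2 lower with Bic/4AP in vector cultures, 2 were higher with the hairpin untreated and 1 lower with Bic/4AP. With a pseudocount of 5, 1 member was higher and 1 lower with Bic/4AP in hairpin cultures, and 0 were higher and 1 lower with the hairpin untreated. Under median-ratio scaling, 5 were higher and 0 lower with Bic/4AP in vector cultures, 0 were higher with the hairpin untreated and 1, Bid, lower with Bic/4AP. Under upper-quartile scaling 0 were lower in vector cultures. The cause was not tested. Under median-ratio scaling 6.02% of all genes were called higher and 2.48% lower with Bic/4AP in vector cultures. No called difference changed sign. Bounds apart were not applied to the difference of responses. The additive limma fit, itself added later, pairs Bic/4AP with untreated libraries within each background. Its 4 member counts (8 higher and 8 lower with Bic/4AP, 6 higher and 2 lower with the hairpin) stayed within 1.5 times with a constant prior variance and pseudocounts of 0.1 and 5. Under median-ratio scaling 4 were lower with the hairpin, and the other 3 counts stayed within 1.5 times. No library was left out, since each condition had 1.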
